A study of Homo sapiens with 22 samples.

Results

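The genes described are HUWE1 and 7 other ubiquitin ligases of the HECT class, UBE3A, UBE3C, HERC1, HERC2, TRIP12, NEDD4 and ITCH. They were chosen by symbol, and all 8 were found among the 25244 genes of one RNA sequencing experiment and the 25791 genes of another. Both experiments used Ls174T cells, a human colon carcinoma line. In the HUWE1 experiment, pools of cells carried a pLKO vector with an shRNA against HUWE1 (shHUWE1) or the empty pLKO vector (control vector), and each received BI8622, a small molecule inhibitor of HUWE1, or the solvent DMSO. In the MIZ1 experiment, all cells carried a doxycycline-inducible shRNA against MIZ1 (pIND-shMiz1, gene ZBTB17). They were kept with doxycycline (1 µg/ml, 4 days) or without it, and each received BI8622 or DMSO. The BI8622 dose was 20 µM for 16 h. Each of the 8 groups had 2 libraries.

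HECT ligases are enzymes that take ubiquitin from an E2 conjugating enzyme onto a cysteine of their own HECT domain and pass it on to a substrate. This thioester step sets them apart from RING ligases, which bring E2 and substrate together without carrying ubiquitin themselves. Ubiquitin chains mark many substrates for the proteasome, and others for sorting or signalling. HUWE1 is a very large member that ubiquitinates MCL1, p53, MYC, N-MYC and MIZ1, among others.

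The deposited values are means over the libraries of a pair of groups, in CPM (read counts scaled to library size). The level of each group was solved from them, on the assumption that both groups of a pair weigh equally. Each level is therefore a mean of 2 libraries without its own error, and no test could be run on a single comparison. Whether a difference exceeds the spread between libraries cannot be told from these values. A fold of 1.5 is used as a fixed size threshold, and counts are set against the share of all genes at 1 CPM or more that passed it in the same comparison. The 4 BI8622 comparisons share no library with each other, and for these the mean ± SD over the 4 cell contexts (shHUWE1, control vector, with and without doxycycline) is given. Cell contexts are not replicates, and an exact two-sided sign-flip test over 4 values cannot go below p = 0.125. The depth of the libraries was not analysed here.

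All 9 colon epithelial markers looked up were measured, and their sum, most of it from KRT8, KRT18 and EPCAM, was between 1742 and 3019 CPM in the groups of the HUWE1 experiment. Single markers differed between groups. Of the 9, 5 (KRT20, CEACAM5, MUC2, KRT8 and KRT18) were higher in BI8622 than in DMSO in 4 of 4 cell contexts. Another 3 (EPCAM, CDX1 and CDX2) were lower in 4 of 4, against 28.7% of all genes higher and 28.4% lower. KRT20 had the highest mean log2 ratio of the 9, 1.10 ± 0.18 (SD, n = 4 cell contexts). Its level was low, between 2.54 and 9.48 CPM over the 8 groups, below the 16 CPM used for ranks. The intestinal transcription factor genes CDX1 and CDX2 were lower in BI8622 than in DMSO in 4 of 4 cell contexts, with mean log2 ratios of -1.31 ± 0.61 for CDX1 and -0.69 ± 0.40 for CDX2 (SD, n = 4 cell contexts), and CDX1 was at 16.3 CPM in BI8622 and 58.0 CPM in DMSO with doxycycline. MUC2, a goblet cell mucin gene, was at 400.0 CPM in shHUWE1 cells and 81.7 CPM in control vector cells in BI8622, and at 343 CPM in shHUWE1 cells and 52.6 CPM in control vector cells in DMSO. The part of these markers in the ligase values was not tested. Of the 5 fibroblast markers, 2 were measured, with a summed level between 5.93 and 7.35 CPM there, and the 4 measured leukocyte markers summed to between 9.49 and 11.6 CPM. As a check of the other knockdown, ZBTB17, the target of the inducible shRNA, stood at 11.4 CPM with doxycycline and 22.6 CPM without it in BI8622. In DMSO it stood at 11.0 CPM with doxycycline and 15.7 CPM without it. The log2 ratios were -0.99 in BI8622 and -0.52 in DMSO, and only that in BI8622 passed a fold of 1.5.

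HUWE1 (ENSG00000086758) lies on the minus strand of GRCh37 chromosome X, from 53559057 to 53713697, and its canonical transcript has 85 exons. It is the gene targeted in the first experiment. In BI8622, HUWE1 was at 176 CPM in shHUWE1 cells and 460.2 CPM in control vector cells. In DMSO it was at 218 CPM in shHUWE1 cells and 420.2 CPM in control vector cells. Both shHUWE1 groups lay below both control vector groups, and 38.3% of the control level was left in BI8622 and 51.9% in DMSO. The log2 ratios of shHUWE1 over control vector were -1.38 in BI8622 and -0.95 in DMSO. Among 11816 genes at 16 CPM or more, HUWE1 had the lowest ratio of all in BI8622 and ranked 6 from the lowest in DMSO. The 5 genes with a lower ratio in DMSO, picked out after their values were seen, were MSMO1 (-1.57), a sterol synthesis enzyme, TOMM20 (-1.04), a receptor for mitochondrial protein import, COPS2 (-0.99), a subunit of the COP9 signalosome, PNMA6E (-0.98), and ENSG00000256364 (-0.95), which the table gives no symbol.

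The other ligases lie elsewhere in GRCh37, 4 of them on chromosome 15. On that chromosome, all on the minus strand, UBE3A runs from 25578875 to 25684198, HERC2 from 28356186 to 28567325, NEDD4 from 56119120 to 56285858 and HERC1 from 63900817 to 64126147. UBE3C lies on the plus strand of chromosome 7 from 156931620 to 157062064, and TRIP12 on the minus strand of chromosome 2 from 230628553 to 230787955. ITCH lies on the plus strand of chromosome 20 from 32951041 to 33099578. Values are per gene, over whichever of its exons or introns were counted.

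None of the 7 other ligases passed a fold of 1.5 with shHUWE1 in either treatment, against 5.67% of all genes in DMSO and 5.01% in BI8622. Among 11816 genes at 16 CPM or more, 66 were higher past the fold and 49 lower in DMSO. In BI8622, 33 of these genes were higher past it and 68 lower. The ratios of the 7 ligases over the control vector ran from -0.54 to 0.23 in BI8622 and from -0.07 to 0.37 in DMSO. Their medians were 0.06 in BI8622 and 0.12 in DMSO, beside -0.03 and 0.02 over all genes. The 2 at the ends are described next.

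NEDD4, the founding C2-WW-HECT ligase of the NEDD4 family, was at 45.4 CPM in shHUWE1 cells and 65.9 CPM in control vector cells in BI8622, a log2 ratio of -0.54. In DMSO it was at 44.1 CPM in shHUWE1 cells and 44.2 CPM in control vector cells, a ratio of 0.00. The low ratio in BI8622 thus came with a high level in BI8622-treated control vector cells, while the other 3 groups lay within 1.27 CPM of each other. In BI8622, 0.838% of ranked genes had a lower ratio than NEDD4.

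HERC1, a giant ligase with RCC1-like domains, was at 80.7 CPM in shHUWE1 cells and 62.6 CPM in control vector cells in DMSO, a ratio of 0.37. It was at 86.6 CPM in shHUWE1 cells and 83.1 CPM in control vector cells in BI8622, a ratio of 0.06. Here the control vector cells in DMSO were the low group, and 2.84% of ranked genes had a higher ratio in DMSO.

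Ratios of shHUWE1 over control vector were alike in both treatments for the other 5. TRIP12, the ligase of the ubiquitin fusion degradation pathway, had 0.23 in BI8622 and 0.12 in DMSO. UBE3C, which binds the proteasome, had 0.15 in BI8622 and 0.19 in DMSO, and HERC2 had 0.10 in BI8622 and 0.13 in DMSO. UBE3A, known as E6-AP, had -0.14 in BI8622 and -0.03 in DMSO. ITCH, a second C2-WW-HECT ligase, had 0.00 in BI8622 and -0.07 in DMSO. The ratios in BI8622 and in DMSO come from different libraries.

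**Figure D1:**
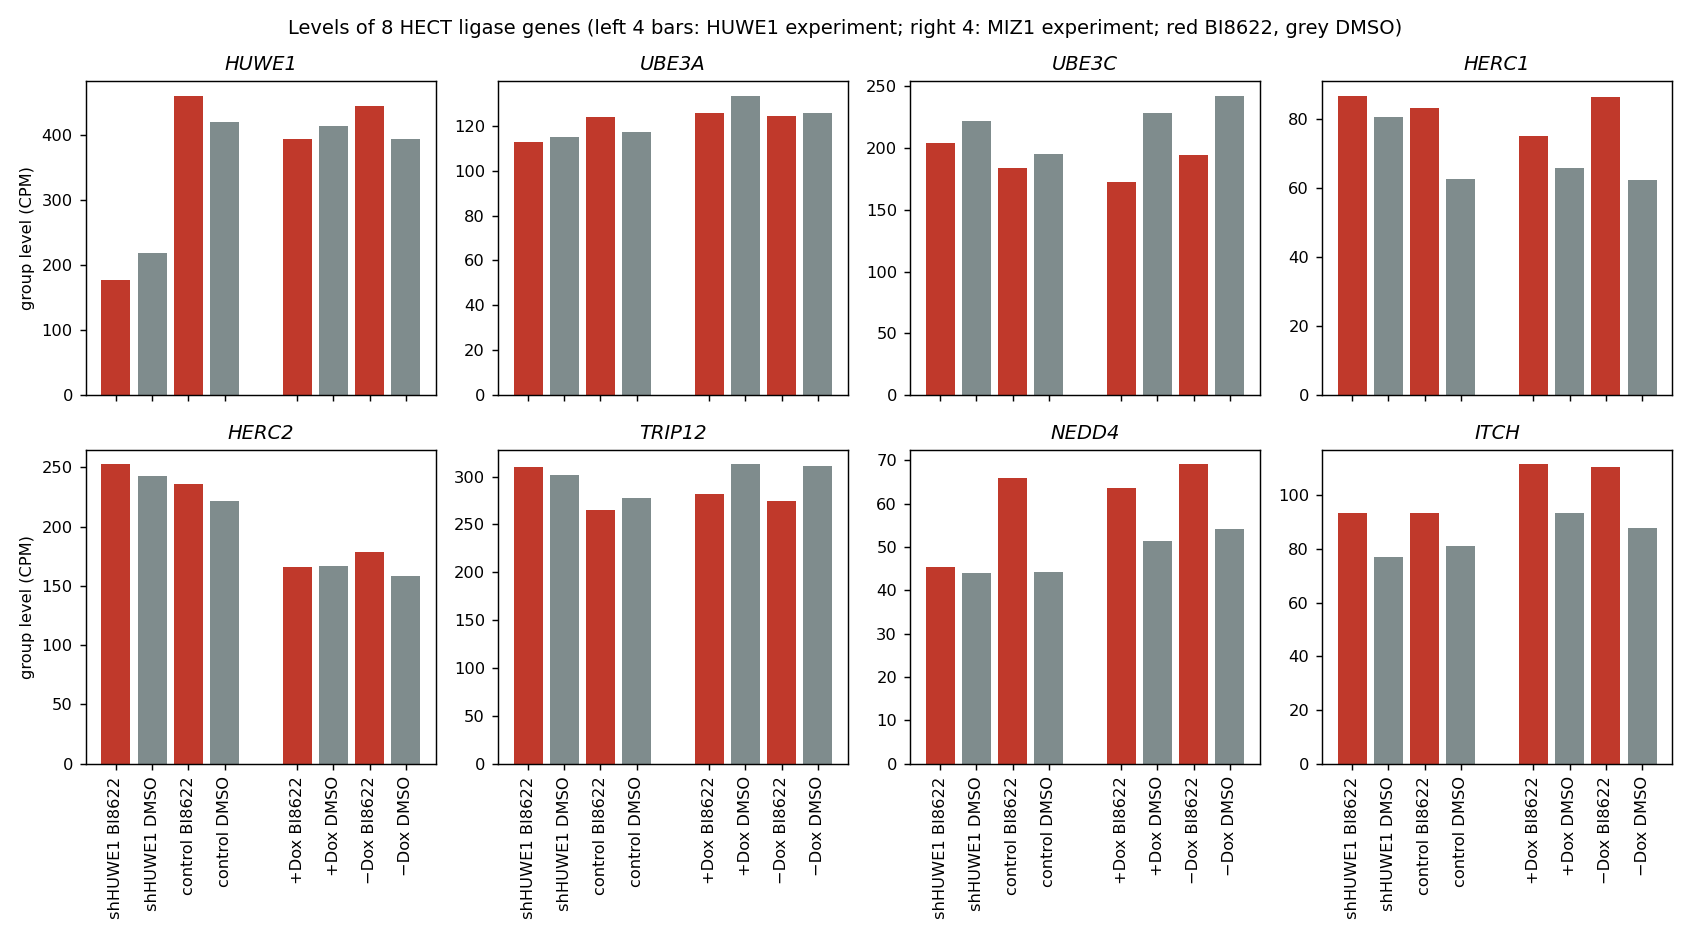
Group levels of the 8 ligase genes in CPM, with 1 bar per group (a mean of 2 libraries, no error available). The 4 bars on the left of each panel are the HUWE1 experiment and the 4 on the right the MIZ1 experiment, red for BI8622 and grey for DMSO. HUWE1 is low in both shHUWE1 groups, and NEDD4 is higher in BI8622 than in DMSO in each cell context, least in shHUWE1 cells, with 45.4 CPM in BI8622 and 44.1 CPM in DMSO.

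The level pattern over the 4 groups of the HUWE1 experiment was compared between HUWE1 and every gene at 16 CPM or more, by the root mean square distance of log2 levels centred on the gene's own mean. The nearest were FAM96B (distance 0.16), a factor of cytosolic iron-sulfur protein assembly, TOMM20 (0.16), ENSG00000256364 (0.20), the tyrosine phosphatase gene PTPN1 (0.25) and COPS2 (0.25). FAM96B was at 10.8 CPM in shHUWE1 cells and 22.2 CPM in control vector cells in BI8622, and at 13.98 CPM in shHUWE1 cells and 23.2 CPM in control vector cells in DMSO. TOMM20 was at 91.4 CPM in shHUWE1 cells and 180 CPM in control vector cells in BI8622, and at 86.7 CPM in shHUWE1 cells and 179 CPM in control vector cells in DMSO. No other HECT ligase was among them. The distance rests on 4 group levels, 2 of them from cells with the same shRNA.

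HUWE1 RNA had no common direction with BI8622. The log2 ratios of BI8622 over DMSO were -0.31 in shHUWE1 cells, 0.13 in control vector cells, -0.07 with doxycycline and 0.18 without it, with a mean of -0.02 ± 0.22 (SD, n = 4 cell contexts). With doxycycline HUWE1 was at 394 CPM in BI8622 and 414 CPM in DMSO, and without it at 445 CPM in BI8622 and 394 CPM in DMSO. Thus the 6 groups without an shRNA against HUWE1 held between 394 and 460.2 CPM. HUWE1 is inhibited at the protein level by the compound, which RNA levels do not show.

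None of the 8 ligases passed a fold of 1.5 with BI8622 in any cell context. The shares of all genes past it were 13.3% in shHUWE1 cells, 16.2% in control vector cells, 23.7% with doxycycline and 26.7% without it. Among 11816 genes at 16 CPM or more, 415 were higher past the fold and 583 lower in shHUWE1 cells. In control vector cells 654 of these were higher past it and 554 lower. With doxycycline 1155 of 11963 such genes were higher past it and 1254 lower, and without it 1302 of 11962 were higher and 1377 lower. NEDD4 in control vector cells stood just inside the threshold, at a fold of 1.49.

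Across the 4 cell contexts, NEDD4, HERC1 and ITCH were higher in BI8622 than in DMSO in 4 of 4, UBE3C was lower in 4 of 4, and the other 4 ligases went both ways. Of 24111 genes at 1 CPM or more in both experiments, 28.7% were higher in 4 of 4 and 28.4% were lower in 4 of 4, beside 37.5% and 12.5% of the 8 ligases. The median of the mean ratios was 0.03 over the 8 ligases and 0.01 over all genes.

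ITCH had the narrowest response of the 3 that were higher, with ratios of 0.28 in shHUWE1 cells, 0.20 in control vector cells, 0.26 with doxycycline and 0.33 without it, and a mean of 0.27 ± 0.05 (SD, n = 4 cell contexts). It was at 93.5 CPM in BI8622 and 77.1 CPM in DMSO in shHUWE1 cells, and at 93.3 CPM in BI8622 and 81.1 CPM in DMSO in control vector cells. With doxycycline it was at 111 CPM in BI8622 and 93.4 CPM in DMSO, and without it at 111 CPM in BI8622 and 88.0 CPM in DMSO. Within each experiment, both BI8622 groups of ITCH lay above both DMSO groups.

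NEDD4 had a mean ratio of 0.32 ± 0.22 (SD, n = 4 cell contexts), from 0.04 in shHUWE1 cells to 0.58 in control vector cells. With doxycycline it was at 63.7 CPM in BI8622 and 51.3 CPM in DMSO, and without it at 69.0 CPM in BI8622 and 54.0 CPM in DMSO. The MIZ1 experiment thus had ratios of 0.31 with doxycycline and 0.35 without it, between the 2 values of the HUWE1 experiment.

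HERC1 had a mean of 0.29 ± 0.18 (SD, n = 4 cell contexts), with 0.10 in shHUWE1 cells, 0.41 in control vector cells, 0.19 with doxycycline and 0.47 without it. It was at 75.0 CPM in BI8622 and 65.6 CPM in DMSO with doxycycline, and at 86.4 CPM in BI8622 and 62.2 CPM in DMSO without it. An antisense gene of HERC1 that the table lists as ENSG00000259589 shares 457 exon bases with it and held between 11.0 and 15.2 CPM over the 8 groups.

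UBE3C was lower in each cell context, with a mean of -0.23 ± 0.15 (SD, n = 4 cell contexts). In the MIZ1 experiment it was at 173 CPM in BI8622 and 228 CPM in DMSO with doxycycline, and at 195 CPM in BI8622 and 242 CPM in DMSO without it, ratios of -0.40 with doxycycline and -0.32 without it. In the HUWE1 experiment it was at 204 CPM in BI8622 and 222 CPM in DMSO in shHUWE1 cells, and at 184 CPM in BI8622 and 195 CPM in DMSO in control vector cells, ratios of -0.12 in shHUWE1 cells and -0.08 in control vector cells. The difference was larger in both contexts of the MIZ1 experiment than in both contexts of the HUWE1 experiment, and this was not tested. Of all genes, 23.7% with doxycycline and 26.7% without it passed a fold of 1.5 with BI8622. The shares in the HUWE1 experiment were lower, 13.3% in shHUWE1 cells and 16.2% in control vector cells. RPS27AP12 lies inside UBE3C on the same strand and shares 0 exon bases with it. It held between 19.4 and 24.6 CPM in the HUWE1 experiment and between 36.2 and 39.5 CPM in the MIZ1 experiment. Whether its reads were counted for UBE3C was not tested.

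The remaining ligases had small means. TRIP12 averaged -0.09 ± 0.10, with 281 CPM in BI8622 and 313 CPM in DMSO with doxycycline and 274 CPM in BI8622 and 311 CPM in DMSO without it. In the HUWE1 experiment TRIP12 was at 310.4 CPM in BI8622 and 302 CPM in DMSO in shHUWE1 cells, and at 265 CPM in BI8622 and 278 CPM in DMSO in control vector cells. HERC2 averaged 0.08 ± 0.07 and UBE3A -0.01 ± 0.07 (SD, n = 4 cell contexts for each of these means). UBE3A spanned 113 to 124 CPM over the HUWE1 experiment and 124 to 133 CPM over the MIZ1 experiment, the narrowest range of the 8 ligases in each (highest over lowest group 1.10 and 1.07).

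Among the other 20 human HECT genes, 18 were measured in both experiments. NEDD4L, the closest relative of NEDD4, had the largest mean BI8622 ratio of the 26 HECT genes, 0.58 ± 0.29 (SD, n = 4 cell contexts). It was at 148 CPM in BI8622 and 82.5 CPM in DMSO with doxycycline, and at 135 CPM in BI8622 and 76.1 CPM in DMSO without it. In shHUWE1 cells NEDD4L was at 121 CPM in BI8622 and 100.5 CPM in DMSO, and in control vector cells at 105 CPM in BI8622 and 79.2 CPM in DMSO. UBE3B, a mitochondria-associated ligase, had 0.54 ± 0.07 over the same contexts and was at 78.8 CPM in BI8622 and 52.5 CPM in DMSO with doxycycline, and at 78.3 CPM in BI8622 and 51.4 CPM in DMSO without it. These genes, in the MIZ1 experiment, were the 2 HECT genes past a fold of 1.5 with BI8622, 2 of 26 in each context, against 23.7% of all genes with doxycycline and 26.7% without it. UBE3B sat on the threshold with doxycycline (log2 ratio 0.588).

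Over all 26 HECT genes, 11 were higher in BI8622 in 4 of 4 cell contexts (42.3%) and 2, UBE3C and HECTD3, were lower in 4 of 4 (7.69%), and the median of the mean ratios was 0.07, beside 0.01 over all genes. Of the 9 genes of the NEDD4 family (NEDD4, NEDD4L, ITCH, WWP1, WWP2, SMURF1, SMURF2, HECW1 and HECW2), 5 were higher in 4 of 4 and 0 lower in 4 of 4, with a median of 0.25. This family was set apart after its values were seen. Of the 5 measured HERC genes, 2 were higher in 4 of 4.

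**Figure D2:**
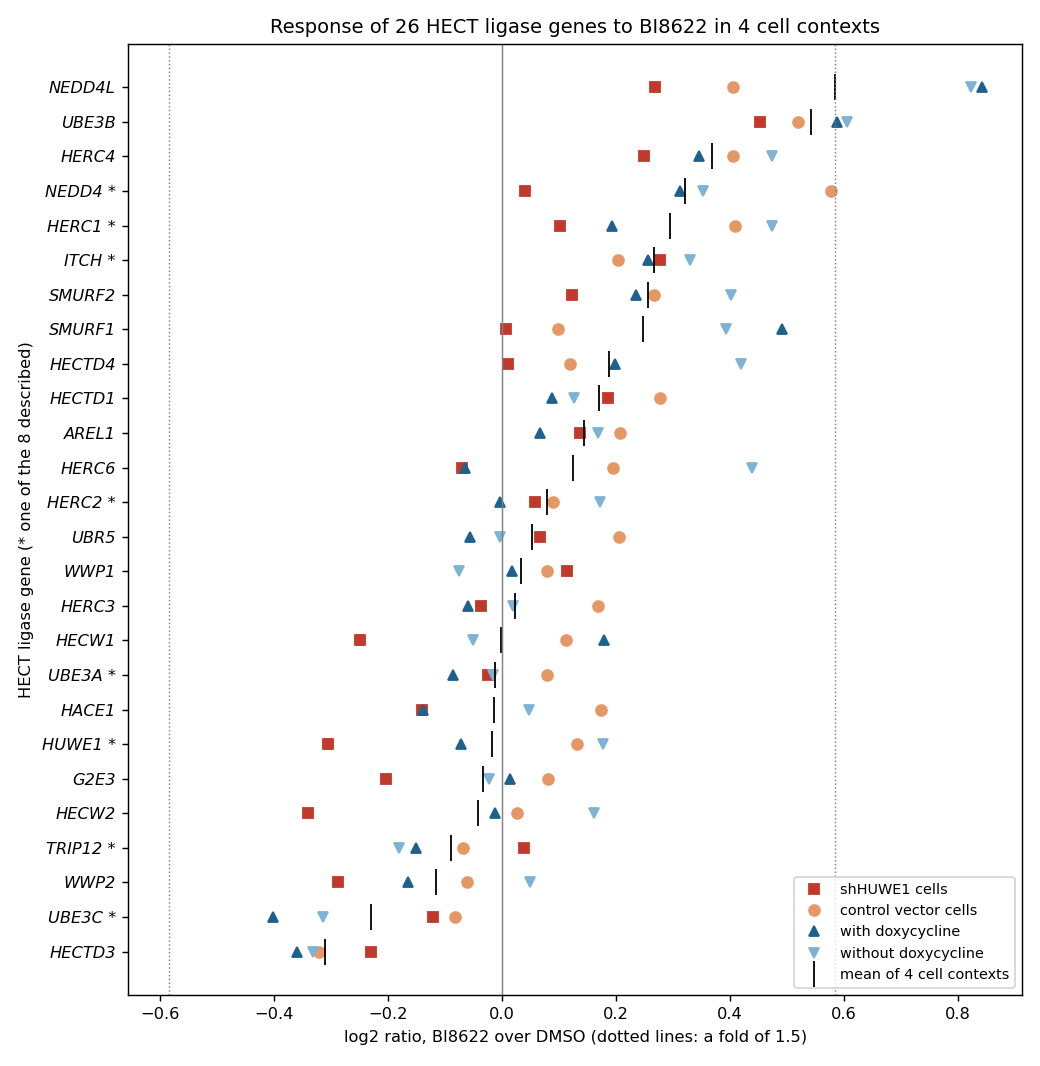
Log2 ratio of BI8622 over DMSO (x axis) for 26 HECT ligase genes (y axis, sorted by mean, asterisks on the 8 described) in shHUWE1 cells (squares), control vector cells (circles), with doxycycline (upward triangles) and without doxycycline (downward triangles). Black ticks are means of the 4 contexts and dotted lines a fold of 1.5. Only NEDD4L and UBE3B cross the line, and the shHUWE1 point of HUWE1 lies at -0.31.

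The BI8622 ratios in shHUWE1 cells were often below those in control vector cells. The difference of the log2 ratios, shHUWE1 minus control vector, was -0.54 for NEDD4, -0.44 for HUWE1 and -0.31 for HERC1. Of 11816 ranked genes, 126 had a lower difference than NEDD4 and 252 a lower one than HUWE1. The difference was -0.10 for UBE3A, -0.04 for UBE3C, -0.03 for HERC2, 0.07 for ITCH and 0.11 for TRIP12. Over the 26 HECT genes the median was -0.14, and 84.6% of them lay below 0. HECT genes span long loci, and the share below 0 was 58.5% over all genes and 81.6% over the 1327 protein-coding genes whose span lies within that of the 8 ligases (105 to 225 kb), whose median was -0.11. The part of gene span in the HECT values was not tested.

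In the MIZ1 experiment the difference of the BI8622 ratios, with minus without doxycycline, was -0.28 for HERC1, -0.25 for HUWE1 and -0.17 for HERC2, and the other 5 ligases lay between -0.09 and 0.03. Their median was -0.08, beside -0.01 over all genes and -0.03 over protein-coding genes of the same range of spans. HUWE1 and HERC1 were among the 3 lowest of the 8 in both experiments. The differences compared are not alike, since HUWE1 is itself the shRNA target in the HUWE1 experiment and MIZ1 is the target here. Whether this overlap exceeds that of unrelated orders of the 8 genes was not tested, nor was the part of gene span in it.

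Doxycycline, and with it the shRNA against MIZ1, went with small differences in all 8 ligases. In BI8622 the log2 ratios of doxycycline over none ran from -0.20 for HERC1 to 0.04 for TRIP12, and in DMSO from -0.09 for UBE3C to 0.09 for ITCH. None passed a fold of 1.5, against 3.68% of all genes in BI8622 and 3.66% in DMSO. Among 11963 genes at 16 CPM or more, 9 were higher past the fold and 20 lower in BI8622. In DMSO 13 of 11962 such genes were higher past it and 6 lower. The medians of the 8 ligases were -0.11 in BI8622 and 0.07 in DMSO, beside -0.01 and 0.01 over all genes. HUWE1 had -0.18 in BI8622 and 0.07 in DMSO. Of the 26 HECT genes, HERC6, related to the interferon-induced HERC5, passed the fold (1 of 26 in DMSO, 0 of 26 in BI8622), with 13.8 CPM with doxycycline and 9.14 CPM without it in DMSO, and it was at 13.2 CPM with doxycycline and 12.4 CPM without it in BI8622.

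The order of levels was set per kilobase of canonical transcript, since a long transcript yields more fragments. Averaged over 4 groups, UBE3C was first of the 26 HECT genes, with 38.7 CPM per kb in the HUWE1 experiment and 40.2 CPM per kb in the MIZ1 experiment, and TRIP12 second with 28.6 and 29.2 CPM per kb in the same order. HUWE1 followed among the 8 with 21.7 and 28.0 CPM per kb, where the lower value includes both shHUWE1 groups. HERC2 (15.5 and 10.9), UBE3A (13.4 and 14.6) and ITCH (12.8 and 15.0) changed places between the experiments. NEDD4 (8.70 and 10.4) and HERC1 (5.15 and 4.76 CPM per kb) came last in both. The 2 tables were normalized separately, and the paper names more than 1 library kit, so levels set across experiments carry both.

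HERC2 and UBE3A have genes that overlap or resemble them, and how reads of these genes were counted is not stated. HERC2 was at 252 CPM in BI8622 and 242 CPM in DMSO in shHUWE1 cells, and at 236 CPM in BI8622 and 222 CPM in DMSO in control vector cells. In the MIZ1 experiment it was lower, at 166 CPM in BI8622 and 166 CPM in DMSO with doxycycline, and at 178 CPM in BI8622 and 158 CPM in DMSO without it. RPL41P2, a ribosomal protein pseudogene on the plus strand of chromosome 15 from 28560797 to 28561205, lies inside HERC2 and shares 0 exon bases with it. It held between 94.9 and 119 CPM in the HUWE1 experiment and between 42.0 and 46.9 CPM in the MIZ1 experiment. The order of the 4 groups in the HUWE1 experiment was the same for both genes. In the MIZ1 experiment the orders differed. There HERC2 was highest in BI8622 without doxycycline (178 CPM), and RPL41P2 was highest in BI8622 with doxycycline (46.9 CPM). After subtraction of RPL41P2, HERC2 averaged 131 CPM over the groups of the HUWE1 experiment and 122 CPM over those of the MIZ1 experiment. Without subtraction the means were 238 and 167 CPM in the same order. The part of RPL41P2 in the difference between the experiments was not tested. Whether reads of the pseudogene were counted for HERC2 was not tested. HERC2 also has pseudogenes elsewhere, 8 of them listed in the HUWE1 experiment with a summed mean of 143 CPM and 9 in the MIZ1 experiment with 166 CPM, and reads shared with them could be split.

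UBE3A has an antisense partner, SNHG14, whose exons cover 1822 exon bases of UBE3A. SNHG14 differed from UBE3A by no more than 4.00 CPM in each of the 8 groups. It held 115 CPM in shHUWE1 cells in BI8622, where UBE3A held 113 CPM, and 132 CPM with doxycycline in DMSO, where UBE3A held 133 CPM. The use of strand in counting is not stated, so reads of the 2 genes cannot be told apart.

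**Figure D3:**
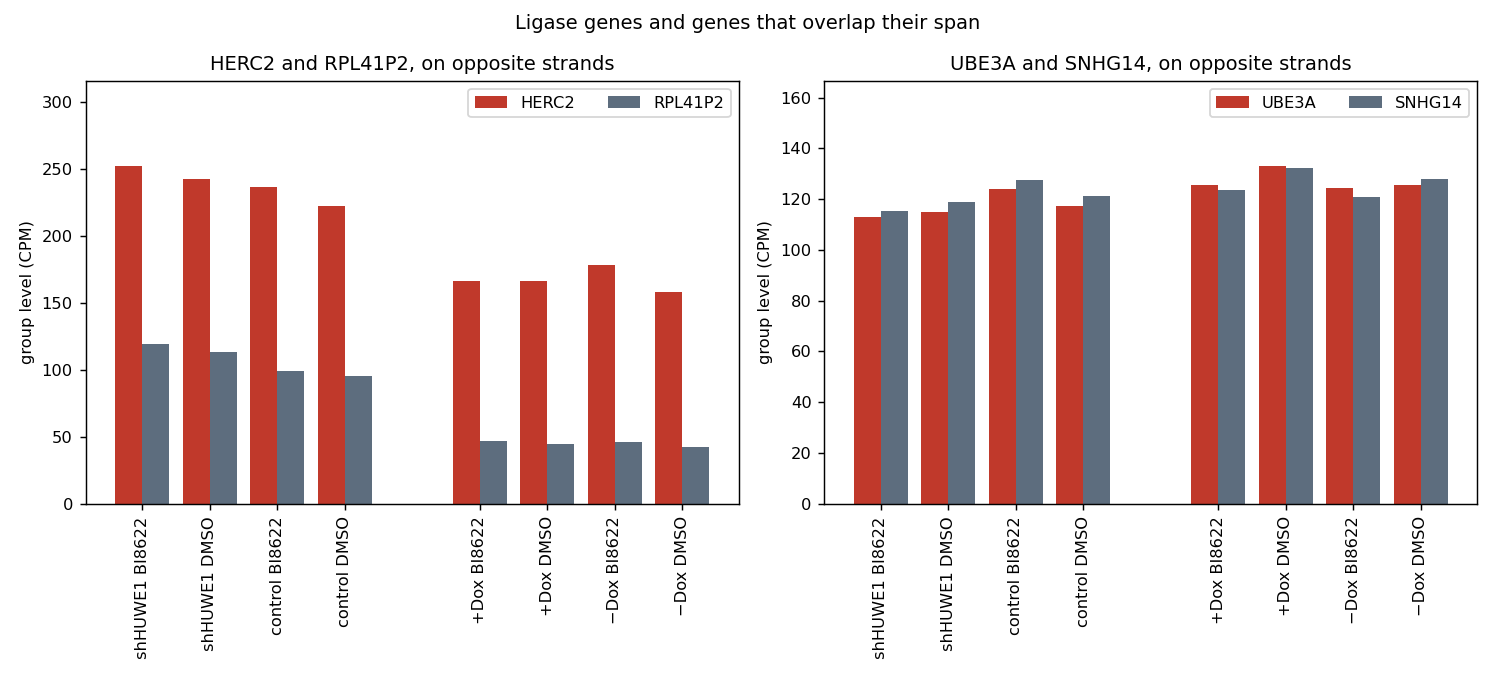
Levels in CPM of HERC2 with RPL41P2 (left) and UBE3A with SNHG14 (right), with a pair of bars per group (means of 2 libraries), the 4 groups of the HUWE1 experiment on the left of each panel. RPL41P2 holds between 94.9 and 119 CPM in the HUWE1 experiment and between 42.0 and 46.9 CPM in the MIZ1 experiment, and SNHG14 stays within 4.00 CPM of UBE3A.

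The E1 and E2 enzymes act upstream of HECT ligases, charging ubiquitin and handing it on. Of 10 E1 and E2 genes listed, 7 were lower in BI8622 in 4 of 4 cell contexts and 1 (UBE2D4) was higher in 4 of 4, against 28.4% of all genes lower and 28.7% higher. The median of the mean ratios was -0.14, beside 0.01 over all genes. UBE2L3, which encodes UBCH7, an E2 dedicated to ligases with a catalytic cysteine, had a mean ratio of -0.51 ± 0.14 (SD, n = 4 cell contexts). It was at 54.1 CPM in BI8622 and 88.2 CPM in DMSO without doxycycline, the only comparison in which a gene of this list passed the fold (1 of 10, against 26.7% of all genes), and at 59.5 CPM in BI8622 and 83.5 CPM in DMSO with doxycycline. UBE2L3 was at 63.8 CPM in BI8622 and 82.2 CPM in DMSO in shHUWE1 cells, and at 66.0 CPM in BI8622 and 91.3 CPM in DMSO in control vector cells, so all 4 BI8622 groups lay below all 4 DMSO groups. None of the 10 passed the fold with shHUWE1, against 5.01% of all genes in BI8622 and 5.67% in DMSO. The adaptors NDFIP1 and NDFIP2, which recruit NEDD4-family ligases, did not pass it in any of the 8 comparisons, in which between 3.66% and 26.7% of all genes did.

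Of 10 genes that encode known HUWE1 substrates, 6 were lower in BI8622 in 4 of 4 cell contexts and 1, POLB, was higher in 4 of 4, against 28.4% of all genes lower and 28.7% higher. The median of the mean ratios was -0.28, beside 0.01 over all genes. In each context of the MIZ1 experiment 4 of the 10, CDC6, MYC, TOPBP1 and MYCN, passed the fold, against 23.7% of all genes with doxycycline and 26.7% without it. In each context of the HUWE1 experiment 1 of the 10, CDC6, passed it, against 13.3% in shHUWE1 cells and 16.2% in control vector cells. CDC6, a replication licensing factor, had the lowest mean, -1.39 ± 0.13 (SD, n = 4 cell contexts), and was at 33.1 CPM in BI8622 and 81.5 CPM in DMSO in shHUWE1 cells. MYC was at 46.3 CPM in BI8622 and 114 CPM in DMSO with doxycycline and at 38.7 CPM in BI8622 and 91.7 CPM in DMSO without it. In the HUWE1 experiment MYC was at 129 CPM in BI8622 and 152 CPM in DMSO in shHUWE1 cells, and at 95.2 CPM in BI8622 and 123 CPM in DMSO in control vector cells. TOPBP1, a DNA replication and checkpoint protein gene, averaged -0.59 ± 0.16 (SD, n = 4 cell contexts). MYCN was at 3.86 CPM in BI8622 and 7.58 CPM in DMSO with doxycycline and at 3.22 CPM in BI8622 and 6.87 CPM in DMSO without it. With shHUWE1 no substrate gene passed the fold, against 5.01% of all genes in BI8622 and 5.67% in DMSO, and MYC was higher in shHUWE1 cells, with ratios of 0.43 in BI8622 and 0.30 in DMSO. These are RNA levels, and ubiquitination of the proteins was not measured here.

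The promoters of the 8 ligases were searched for the E-box CACGTG, the palindromic motif bound by MYC with MAX, in RefSeq windows of GRCh38.p14 from 250 bases before to 50 bases after each start. All 8 genes matched, with 16 windows, and 0 of these held the motif, while 7.26% of all 35116 windows did. The 16 windows are too few for a count of 0 to set them apart from that share. The count covers these letters in these windows and gives nothing on binding.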

How the data were processed

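RNA of 16 libraries was measured, in 2 experiments of 4 groups with 2 libraries each. Per the labels, reads were aligned to hg19 with Bowtie 0.12.8, and the notes also name CASAVA and FastQC. The sources used here give neither the counting of reads per gene, nor the use of strand, nor library depths. Each deposited table holds comparisons of pairs of groups that the authors made with edgeR. As deposited by the authors, the log2 CPM columns give the mean level of a gene over the 4 libraries of a pair (CPM, read counts scaled to library size). The tables' fold changes, p-values and adjusted p-values are the authors' own comparisons and were not used.

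Pair means were converted to CPM, and the 4 group levels were solved by least squares with both groups of a pair weighted equally (Python 3.11.15, numpy 2.4.6). The equal weighting is an assumption, since the sources used here do not state it. Under it, the 4 pair means of the HUWE1 table fix its 4 levels exactly, which leaves no check of them there. The MIZ1 table has 5, and the solved levels returned them to a median of 0.00073 log2 units (99th percentile 0.00713). The 7 repeated rows of each table were dropped, and 0 columns of other samples were left out.

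No value per library was used, so there is no replicate error and no test. A gene was counted as called past a fold of 1.5 at a mean of at least 1 CPM, and ranks were taken among genes at 16 CPM or more. The 8 members were named in every comparison, and genes of the other lists where they passed that fold. The 5 genes most like HUWE1 had the smallest root mean square distance of centred log2 levels within the HUWE1 experiment. The alternatives were another scaling, another route through the pair means, a minimum of 5 CPM and folds of 5/4 and 2. Solving was run on simulated pair means built with the same equal weighting, so this checked the arithmetic and not the weighting. The members and lists were chosen with earlier results of these data known. Coordinates, exons and lengths are those of GENCODE v44 on GRCh37. ChIP sequencing was not analysed here.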

Additional observations from a re-analysis of the deposited data

Results flagged for a closer look

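HUWE1 was flagged because its RNA differed in opposite directions with BI8622 in the 2 cell contexts of the HUWE1 experiment. The log2 ratio of BI8622 over DMSO was -0.31 in shHUWE1 cells and 0.13 in control vector cells, a difference of -0.44, and this difference was not tested because no values per library were used. In the MIZ1 experiment, in which no shRNA against HUWE1 was present, the ratios were -0.07 with doxycycline and 0.18 without it.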

How the results depend on the processing

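Counts of HECT genes past the threshold depended on the fold, and they were small. At a fold of 2 the count was 0 with shHUWE1 in DMSO, 0 with BI8622 in both contexts of the MIZ1 experiment and 0 with doxycycline in DMSO, while HUWE1 itself remained past it with shHUWE1 in BI8622. At a fold of 5/4 it was 5 with shHUWE1 in BI8622 and 4 in DMSO, 2 with BI8622 in shHUWE1 cells, 5 in control vector cells, 6 with doxycycline and 11 without it, and 1 with doxycycline in BI8622 and 2 in DMSO. With BI8622 and doxycycline the count of 2 became 1 with centred pair means and 1 with a single route, since UBE3B sits at the threshold. A minimum of 5 CPM changed none of the counts at a fold of 1.5. Of the 64 ratios of the 8 ligases, none moved by more than 0.063 on the log2 scale with centred pair means, where 2 values near 0 changed sign (NEDD4 with shHUWE1 in DMSO and UBE3A with BI8622 in shHUWE1 cells), and the 32 of the MIZ1 experiment moved by at most 0.0086 with a single route. The HUWE1 table has only 1 route. With centred pair means the BI8622 ratio of HUWE1 was -0.24 in shHUWE1 cells and 0.12 in control vector cells, which are nearer each other than in the main scaling. Differences of ratios between cell contexts are given here in the main scaling only. Leaving out a library could not be done, since the pair means hold their libraries together. No paired analysis was possible because the values are means over both replicates of each group.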
